A study of Mus musculus with 11 samples.

Results

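The interleukin and interleukin receptor genes were the 51 rows of the count table whose symbol begins with Il followed by a digit and that had at least 10 reads in at least 5 of the 11 mice, out of 83 rows with such a symbol and 43346 rows in all. They comprised 15 ligand genes, 34 receptor genes and 2 others, the binding protein gene Il18bp and the enzyme gene Il4i1. RNA came from the colon of male Swiss Webster mice, an outbred stock, aged 8 to 10 weeks. The 5 germ-free mice had no microbiota, and the 6 humanized mice were germ-free animals that were gavaged at 4 to 5 weeks of age with 300 μL of stool suspension from 1 healthy human donor and kept for a further 4 to 5 weeks. Both groups lived in isolators on autoclaved food and water, and a gavage of the germ-free mice is not described. The comparison asks which genes of the colon differ when a human microbiota is present, and it rests on 1 donor. How mice were spread over isolators is not given in the sources used here, so isolator and colonization cannot be told apart.

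Interleukins are secreted or released proteins through which immune cells, epithelium and stroma signal to each other. The IL-1 family (IL-1, IL-18, IL-33, IL-36) signals through receptors that recruit the adaptor MyD88, and the IL-17 family through related receptors that recruit the adaptor Act1. Many other interleukins bind receptors built from shared chains, such as the common γ chain, gp130 and IL-10Rβ, which activate JAK kinases and STAT transcription factors. In the gut wall, IL-18 and IL-33 are stored in cells of the barrier and the tissue beneath it, IL-22 and IL-17 act on the epithelium, and decoy receptors, binding proteins and receptor antagonists limit several of these signals.

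Between 49097005 and 64148538 reads per germ-free mouse and between 39125290 and 54219854 per humanized mouse were counted on genes. Levels are given as RPKM (reads scaled to the deposited gene length in kilobases and to the TMM-normalized library size), and a log2-fold change (LFC) above 0 means a higher level in the humanized group. A gene was called different at a false discovery rate (FDR) below 0.01 in edgeR's exact test over all 19863 genes that passed the low-count filter. The markers of cell types in this bulk tissue also moved with the group. Of 9 smooth muscle markers all 9 were lower in humanized mice, with a summed level from 602 to 1826 CPM (counts scaled to the library size) in germ-free and from 80.1 to 641 CPM in humanized mice, and 6 of 7 fibroblast markers were lower, with 1373 to 1840 CPM against 132 to 1013 CPM. T cell markers were higher for 5 of 10, with 15.3 to 20.6 CPM against 22.4 to 48.8 CPM, and B and plasma cell markers for 4 of 8, with 23.4 to 111 CPM against 153 to 1057 CPM. Epithelial markers, 2 of 11 of which were higher, summed to between 9210 and 12365 CPM against 10554 to 14632 CPM. No list summed to 0 in any mouse. In such tissue, fewer cells of a type and less RNA per cell cannot be told apart.

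All 51 interleukin and receptor genes passed the filter. In humanized mouse colon, 3 of them had higher expression (Il18, Il1b and Il13ra1) and 12 had lower expression. Over all genes tested, 9.2% were called higher and 10.1% lower, together 19.3%, and 15 of 51 is 29.4%. Ligands and receptors were counted apart. Among 15 ligands 2 were higher and 2 lower, with a median LFC of 0.20, and among 34 receptors 1 was higher and 10 were lower, with a median LFC of −0.27, where the median of all genes was 0.0084. For 16 of the 51 genes every mouse of one group lay above every mouse of the other, compared with 18.4% of all genes. Of the 15 calls, 9 were also below an FDR of 0.01 with edgeR's quasi-likelihood test and all 15 were at or below 0.0215. With total counts or epithelial markers in place of TMM the median LFC of all genes shifted to −0.18 and −0.24, and none of the receptors was then called higher. The spread was wider in humanized mice. The coefficient of variation had a median of 13.5% in germ-free and 27.1% in humanized mice over the 51 genes, and of 10.4% and 16.5% over all genes.

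**Figure D1:**
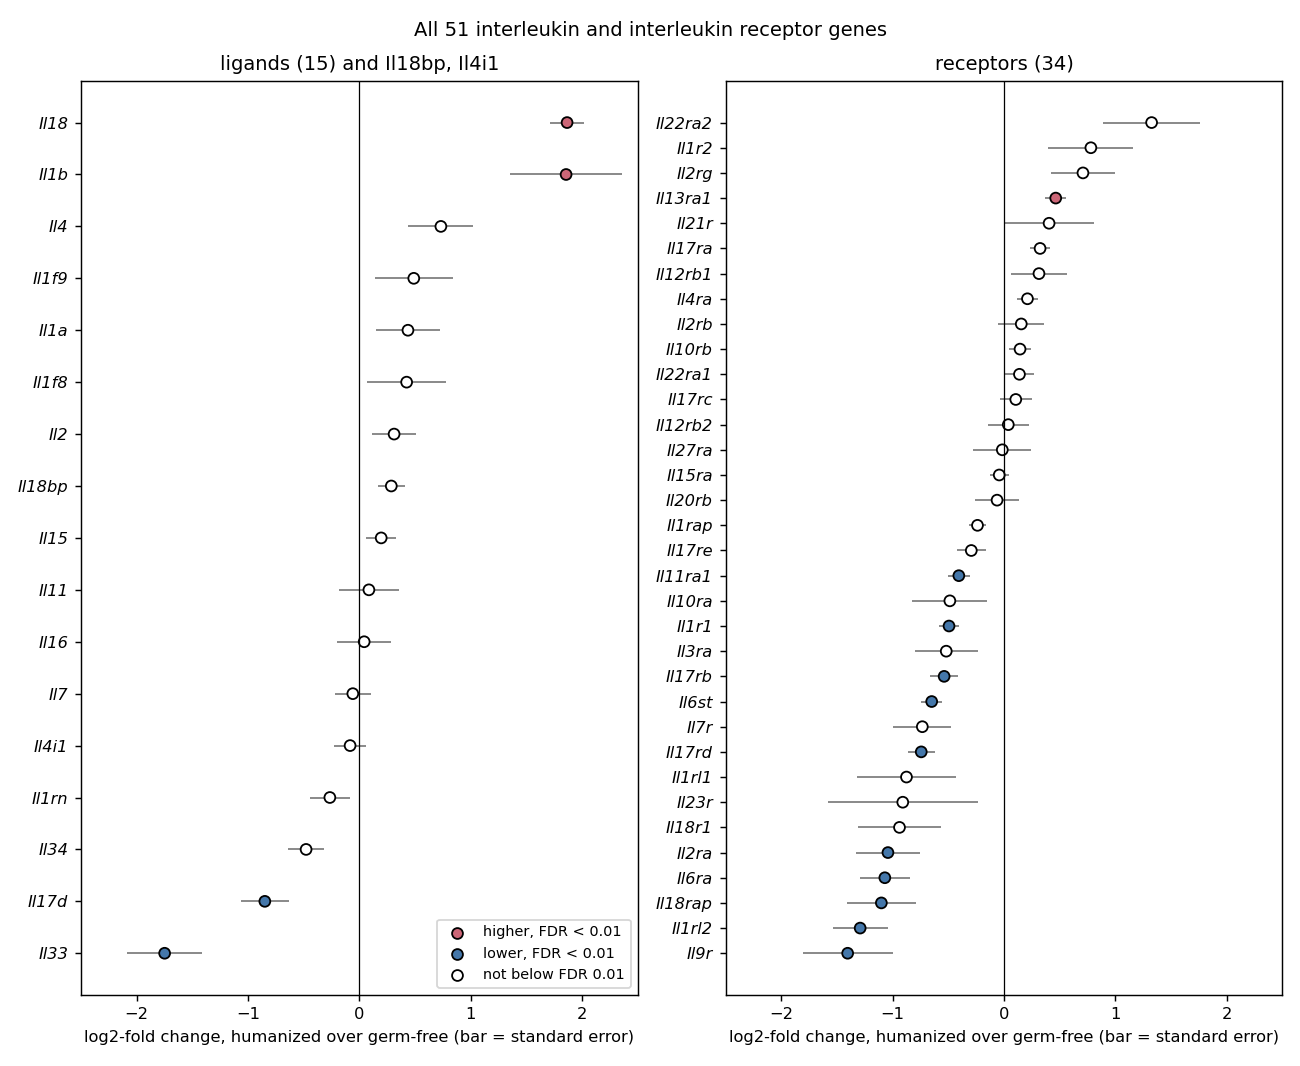
Log2-fold change of each of the 51 genes in humanized over germ-free mouse colon (x axis), with bars for the standard error of edgeR's quasi-likelihood fit and filled points for genes at FDR below 0.01. Il18 (1.86) and Il1b lie farthest right among the ligands and Il33 (−1.75) farthest left, and 10 of the 11 filled receptors lie left of 0.

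Il18 had the smallest FDR of all interleukin genes. IL-18 is a cytokine of the IL-1 family that epithelial cells make as a precursor and that drives interferon-γ production by lymphocytes. Its gene lies on chromosome 9 from 50575273 to 50581837 in mm10. The 5 germ-free mice had 8.31, 7.36, 8.53, 8.05 and 7.63 RPKM, and the 6 humanized mice ranged from 19.6 to 39.1 RPKM with a median of 28.9. Every humanized mouse was thus above every germ-free mouse, at 3.64 times the level (LFC 1.86, standard error 0.15, FDR = 1.23e-23, 275 to 381 reads per germ-free mouse). Across all settings tried, the LFC of Il18 lay between 1.59 and 1.96, and the lower of these values came from setting library sizes by 11 epithelial marker genes. The deposited model of this gene covers 714 bases and begins 20573 bases downstream of the RefSeq start, so reads of the first exons were not counted for it.

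Il1b encodes IL-1β, the inflammatory cytokine that macrophages and neutrophils release after cleavage by caspase-1, and it lies on chromosome 2 from 129364570 to 129371139. Levels were low in both groups. Germ-free mice had 0.349, 0.220, 0.251, 0.319 and 0.233 RPKM (22 to 42 reads), and humanized mice ranged from 0.110 to 1.76 RPKM with a median of 0.851 (LFC 1.86, standard error 0.50, FDR = 0.00242). In 5 of the 6 humanized mice Il1b was above all germ-free mice, and in humanized mouse 5, with 10 reads, it was below all of them. Without humanized mouse 5 the LFC of Il1b was 2.09 (FDR = 3.52e-09). Its call was lost in the quasi-likelihood test over all mice (FDR = 0.0162), with the epithelial scaling (FDR = 0.015), and without germ-free mouse 2, 3 or 5 or humanized mouse 2 (FDR up to 0.013). Macrophage and monocyte markers in the same mice were mixed, with 1 of 8 called higher and 1 called lower. Of the 8, 5 had an LFC below 0, and the median LFC was −0.415. They summed to 232 to 281 CPM in germ-free and 172 to 399 CPM in humanized mice, with the lowest sum in humanized mouse 5. The part of these markers in the Il1b result was not tested.

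Il33 fell the most among the ligands. IL-33 is a nuclear alarmin of stromal, endothelial and epithelial cells that is set free by damage and acts on ST2-bearing lymphocytes and mast cells. Its gene lies on chromosome 19 from 29925114 to 29960718. Germ-free mice had 2.79, 1.5, 2.55, 3.93 and 2.98 RPKM, and humanized mice ranged from 0.284 to 1.5 RPKM with a median of 0.775. The groups did not overlap but nearly met, with 1.503 RPKM in the lowest germ-free and 1.498 RPKM in the highest humanized mouse (LFC −1.75, standard error 0.34, FDR = 1.60e-05). Il17d, which encodes a less studied member of the IL-17 family and lies on chromosome 14 from 57524829 to 57543165, fell as well. It had 2.45, 2.68, 3.60, 3.27 and 2.75 RPKM in germ-free mice and from 1.01 to 2.63 RPKM with a median of 1.54 in humanized mice (LFC −0.85, standard error 0.22, FDR = 0.00317). Humanized mouse 1, at 2.63 RPKM, lay within the germ-free range of Il17d, and the other 5 below it. The call of Il17d was lost in the quasi-likelihood test (FDR = 0.0126) and without germ-free mouse 3 or 4. Smooth muscle and fibroblast markers fell in the same mice. The 5 endothelial markers, 0 of them called by edgeR's exact test, its quasi-likelihood test or DESeq2 and 4 at an unadjusted p below 0.05 in the exact test, had LFC values from −1.07 to −0.61 and summed to 90.7 to 106 CPM in germ-free and 13.1 to 84.4 CPM in humanized mice, without overlap. The part of these markers in the Il33 and Il17d results was not tested.

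**Figure D2:**
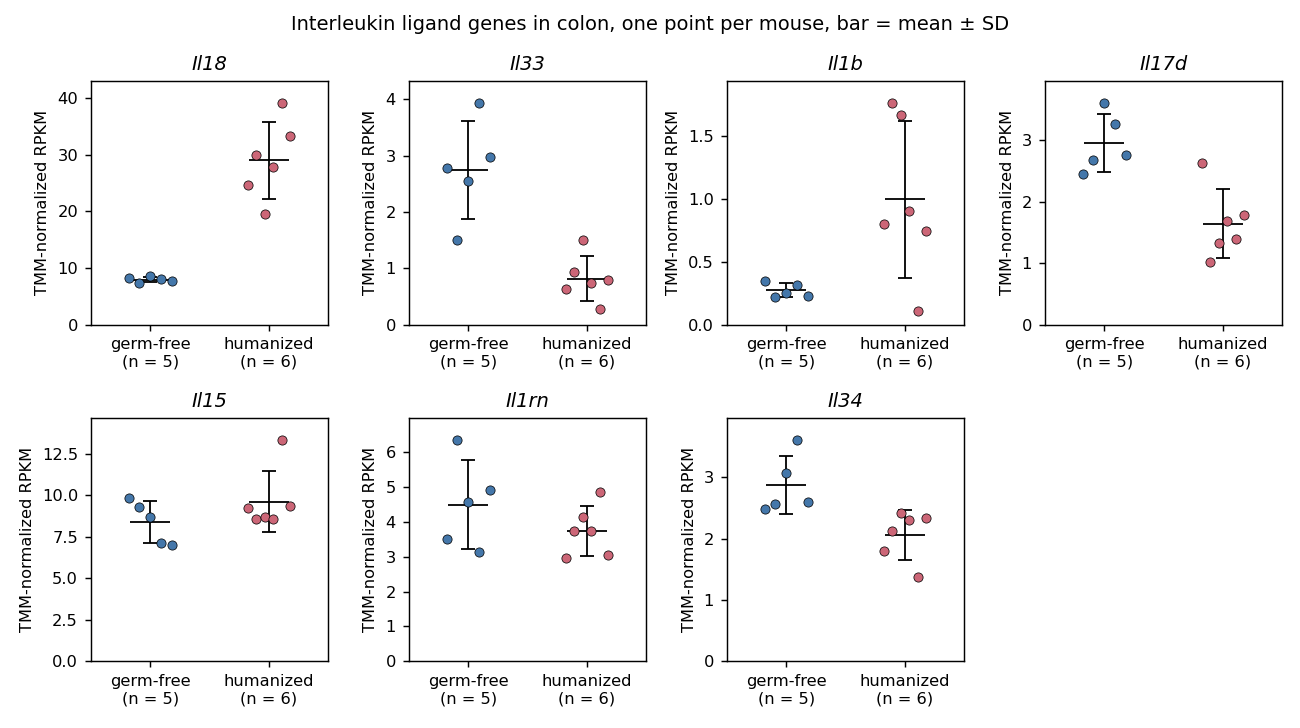
TMM-normalized RPKM (y axis) in each germ-free mouse (5 animals) and each humanized mouse (6 animals) for the 4 called ligand genes and the most abundant others, with the mean and SD as bars. The points of Il18 are separated between the groups, those of Il33 nearly meet, 1 humanized mouse lies below all germ-free mice for Il1b, and the groups overlap for Il15 and Il1rn.

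The sequences upstream of the 4 called ligand genes are shown because these genes moved in opposite directions. They are the 250 bases before the RefSeq start of each gene on GRCm38.p6, 5′ to 3′ on the strand of the gene, and capitals mark matches to the TATA box letters TATAAA on either strand. The windows are chr9:50554450-50554699 (+) for Il18, chr2:129371140-129371389 (−) for Il1b, chr19:29924863-29925112 (+) for Il33 and chr14:57524579-57524828 (+) for Il17d.
Il18: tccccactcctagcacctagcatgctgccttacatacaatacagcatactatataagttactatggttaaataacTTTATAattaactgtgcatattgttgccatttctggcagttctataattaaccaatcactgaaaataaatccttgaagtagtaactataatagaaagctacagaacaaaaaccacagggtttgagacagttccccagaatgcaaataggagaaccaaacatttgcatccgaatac
Il1b: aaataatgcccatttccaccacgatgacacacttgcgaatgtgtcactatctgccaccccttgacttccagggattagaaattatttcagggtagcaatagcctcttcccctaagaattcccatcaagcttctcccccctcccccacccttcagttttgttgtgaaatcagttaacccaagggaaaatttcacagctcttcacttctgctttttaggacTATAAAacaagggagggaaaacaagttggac
Il33: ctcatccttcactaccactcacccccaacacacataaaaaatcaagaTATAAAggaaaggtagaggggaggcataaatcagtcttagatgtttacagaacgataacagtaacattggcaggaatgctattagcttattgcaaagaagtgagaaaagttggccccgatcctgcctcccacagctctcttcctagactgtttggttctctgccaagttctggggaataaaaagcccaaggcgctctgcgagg
Il17d: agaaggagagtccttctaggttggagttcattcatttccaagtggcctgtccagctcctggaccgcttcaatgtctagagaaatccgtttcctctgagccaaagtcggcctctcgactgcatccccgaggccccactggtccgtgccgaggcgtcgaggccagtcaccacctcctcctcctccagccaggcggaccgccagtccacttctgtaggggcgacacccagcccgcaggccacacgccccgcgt
In the window of Il1b the match begins 31 bases before the start. Those of Il33 and Il18 begin 203 and 175 bases before it, the latter on the reverse strand, and the Il17d window holds none. No match to the STAT site TTCNNNGAA, the core of the interferon-stimulated response element or the AP-1 site TGANTCA, searched on both strands, was found in these 4 windows. Of 41 members with a RefSeq promoter entry, 6 held TATAAA (14.6%), compared with 12.4% of 32851 promoters in the table. TTCNNNGAA was found for 4 of the 41 (9.76%, and 7.02% of all promoters), the interferon-stimulated core for 1 (2.44% and 2.98%) and TGANTCA for 6 (14.6% and 6.75%). These are matches of letters only.

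The other 11 ligands were not called, nor was Il4i1 (LFC −0.08), an amino acid oxidase gene with 86.3% of its exon bases shared with other genes. Il15, which encodes the cytokine that maintains intraepithelial lymphocytes and natural killer cells, was at a level near that of Il18 in germ-free mice. It differed by less than the SD between mice, with 9.86, 9.31, 8.67, 7.14 and 7.03 RPKM in germ-free mice (8.40 ± 1.27, SD, n = 5) and from 8.55 to 13.3 RPKM with a median of 8.96 in humanized mice (9.62 ± 1.85, SD, n = 6) (LFC 0.20, FDR = 0.370). Il1rn encodes the IL-1 receptor antagonist, and it had 3.50, 6.34, 4.57, 3.13 and 4.91 RPKM in germ-free mice and from 2.96 to 4.86 RPKM with a median of 3.72 in humanized mice (LFC −0.26, FDR = 0.318). For Il34, whose product is another ligand of the macrophage receptor CSF1R, germ-free mice had 2.49, 2.57, 3.07, 3.61 and 2.6 RPKM and humanized mice from 1.38 to 2.41 RPKM with a median of 2.21, without overlap (LFC −0.48, FDR = 0.0480). The T helper cytokine gene Il4 had an LFC of 0.73 (FDR = 0.0725) on 9 to 26 reads per mouse. Il1a, which encodes IL-1α, a relative of IL-1β, had 0.249, 0.213, 0.286, 0.260 and 0.159 RPKM in germ-free mice. Humanized mice ranged from 0.171 to 0.464 RPKM with a median of 0.343. The remaining 7 were Il1a, Il1f8 and Il1f9 (IL-36β and IL-36γ in current names), Il2, Il7, Il11 and Il16, with LFC values from −0.06 to 0.49 and FDR values of 0.318 or more. For Il1a and Il16, 11.2% and 17.4% of the exon bases are shared with genes on the opposite strand in GENCODE M21, and reads of a kit that does not mark strand cannot be assigned there.

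Many of the best known intestinal interleukins were below the minimum of 10 reads in 5 mice. These were 24 ligand genes, 7 receptor genes and the noncoding Il1bos. Il22 had no read in any germ-free mouse and 2 reads in 1 humanized mouse, and Il17a had none in germ-free mice and 2, 4 and 4 reads in 3 of the humanized mice. The totals were 7 and 4 reads for Il6, 12 and 51 for Il10, 26 and 55 for Il12a, 8 and 22 for Il23a, 18 and 44 for Il17c, 11 and 21 for Il17f and 8 and 20 for Il25, over 5 germ-free and 6 humanized mice respectively. Over the 5 germ-free libraries together, a total of 0 (a limit of 3 counts) allows a level of up to 0.0105 CPM, counting error only. Il3, Il20, Il24, Il31, Il1f5, Il1f10 and Il1rapl2 had no read in any mouse. None of the 32 genes was in edgeR's fit. In an exact permutation test of each gene's level, two-sided and not adjusted for the 32 genes, 4 had p below 0.05, and 7 of the 32 had no read to compare. The 4 were Il17c (p = 0.00866), Il10 (p = 0.0238), Il5 (33 and 10 reads, p = 0.013) and Il1rapl1 (25 and 1 reads, p = 0.0152), and no direction is drawn from these unadjusted exact permutation values.

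Among receptor genes the highest was Il17rc, a chain of the IL-17 receptor on epithelial cells, with 32.0, 39.4, 37.9, 36.4 and 43.2 RPKM in germ-free mice and from 27.1 to 53.8 RPKM with a median of 39.9 in humanized mice (LFC 0.11, FDR = 0.667). Il13ra1, Il10rb, Il22ra1 and Il17re were the next by mean level, the chains that receive IL-13, IL-10 and IL-22, IL-22, and IL-17C. Of these 5 most abundant receptor genes only Il13ra1 was called, in edgeR's exact test. Il10rb had 22.5, 25.4, 23.9, 24.9 and 24.2 RPKM in germ-free mice and from 22.7 to 34.7 RPKM with a median of 26.1 in humanized mice (FDR = 0.336). Il22ra1 had 12.3, 15.3, 13.7, 14.5 and 12.3 RPKM and from 10.7 to 18.6 RPKM with a median of 15.1 (FDR = 0.498). Il17re had 10.9, 11.5, 12.2, 11.3 and 11.4 RPKM and from 6.48 to 12.1 RPKM with a median of 9.54 (FDR = 0.103). The groups overlapped for these 3 genes and for Il17rc. With total counts or the epithelial scaling, which lower the LFC of all genes, that of Il10rb, Il22ra1 and Il17rc turned below 0 and Il17re was called lower (FDR = 0.00293 with total counts). For Il10rb, 14.9% of the exon bases are shared with an overlapping gene model on the same strand. Without humanized mouse 5, Il17re was below the threshold (LFC −0.39, FDR = 0.00757), and receptors called lower were then 11 and those called higher 4.

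Il13ra1 on chromosome X from 36112110 to 36171259, which encodes the chain that pairs with IL-4Rα to receive IL-13 and IL-4, was the 1 receptor gene with higher expression. The germ-free mice had 22.1, 26, 22.7, 26.1 and 23.4 RPKM, and the humanized mice lay between 27.5 and 38.5 RPKM with a median of 33.2. All humanized mice were above all germ-free mice (LFC 0.46, standard error 0.09, FDR = 9.81e-05). The difference depended on the scaling of the libraries. With total counts in place of TMM the LFC of Il13ra1 was 0.27 (FDR = 0.0118), and scaled to the epithelial markers it was 0.21 (FDR = 0.132). The partner Il4ra had 5.75 ± 0.769 and 6.65 ± 0.696 RPKM (FDR = 0.150).

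Of the 7 receptor genes of the IL-6 and IL-12 families, Il6st, Il6ra and Il11ra1 were called lower in humanized mouse colon and 4 were not called, where 10.1% of all genes were called lower. Il6st encodes gp130, the signalling chain shared by IL-6, IL-11, LIF and oncostatin M, and lies on chromosome 13 from 112464070 to 112510086. It had 8.93, 8.28, 9.16, 10.8 and 8.78 RPKM in germ-free mice and from 4.76 to 7.03 RPKM with a median of 5.97 in humanized mice. The groups were fully separated (LFC −0.65, standard error 0.10, FDR = 2.94e-08). Il6ra, the IL-6 binding chain on chromosome 3 from 89869324 to 89913162, had 3.98, 2.80, 4.32, 4.04 and 3.41 RPKM in germ-free mice and from 0.875 to 2.42 RPKM with a median of 1.97 in humanized mice, again without overlap (LFC −1.07, standard error 0.23, FDR = 1.39e-04). Il11ra1, the IL-11 binding chain, had 5.77, 5.65, 6.20, 6.43 and 5.77 RPKM in germ-free mice and from 3.65 to 5.60 RPKM with a median of 4.36 in humanized mice, without overlap (LFC −0.41, standard error 0.10, FDR = 0.00341). Its call was lost in the quasi-likelihood test (FDR = 0.0107) and without germ-free mouse 3 or 4, and its reads can be shared with near-identical copies such as Il11ra2. Lifr, the LIF receptor that also pairs with gp130, fell from 2.56, 1.44, 1.78, 1.74 and 1.52 RPKM to between 0.422 and 1.12 RPKM with a median of 0.702, without overlap (LFC −1.32, FDR = 1.13e-06), and the gp130 partners Osmr (LFC −0.84, FDR = 0.0772) and Cntfr (LFC −0.71, FDR = 0.225) were not called. The IL-12, IL-23 and IL-27 receptor genes Il12rb1, Il12rb2, Il23r and Il27ra had group means below 1 RPKM and were not called (FDR from 0.340 to 0.983). Il23r was the member nearest the reads minimum, with 10 reads or more in 4 germ-free mice and 1 humanized mouse. For Il12rb2, 40.0% of the exon bases are shared with Serbp1 on the opposite strand.

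Of the 7 receptor genes of the IL-1 family, 6 lie within 478 kb of chromosome 1, from 40074079 to 40551705, a stretch that holds 5 other rows of the count table. In their order along the chromosome, Il1r2, Il1r1, Il1rl2, Il1rl1, Il18r1 and Il18rap had LFC values of 0.78, −0.49, −1.29, −0.88, −0.94 and −1.10. The first of the row, Il1r2, encodes the decoy receptor that binds IL-1 without signalling, and it was the 1 gene of the row with an LFC above 0. It had 0.208, 0.25, 0.134, 0.193 and 0.135 RPKM in germ-free mice (15 to 25 reads) and from 0.0772 to 0.552 RPKM with a median of 0.324 in humanized mice (7 to 41 reads) and was not called over all mice (FDR = 0.133), but was called without humanized mouse 5 (LFC 0.99, FDR = 0.00439). Il1r1, the signalling receptor of IL-1, had 7.57, 7.82, 8.32, 7.72 and 7.90 RPKM in germ-free and from 4.41 to 7.04 RPKM with a median of 5.48 in humanized mice (FDR = 4.56e-05, with 0.09 as the standard error of its LFC). Il1rl2, the receptor of IL-36, fell the most of the row and had 0.833, 0.990, 1.0, 0.973 and 0.985 RPKM in germ-free mice and from 0.164 to 0.591 RPKM with a median of 0.395 in humanized mice (standard error 0.25, FDR = 2.54e-05). Both genes separated the groups.

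Il18rap encodes the accessory chain of the IL-18 receptor. It had 0.514, 0.538, 0.456, 0.555 and 0.428 RPKM in germ-free mice and 0.0717 to 0.331 RPKM with a median of 0.263 in humanized mice, with no overlap (standard error 0.31, FDR = 0.00461). The quasi-likelihood test gave FDR = 0.0198 for Il18rap, and its call was lost on leaving out any 1 of 6 mice (germ-free mice 1 to 4, humanized mice 1 and 4), with FDR values up to 0.019. Il18r1, the chain that binds IL-18, had 0.741 ± 0.0726 and 0.387 ± 0.206 RPKM (FDR = 0.0528). The ligand and both chains thus had LFC values of opposite sign, above 0 for Il18 and below 0 for Il18rap and Il18r1. Il1rl1, which encodes the IL-33 receptor ST2, had 0.986 ± 0.314 and 0.537 ± 0.301 RPKM (FDR = 0.143). Humanized mouse 5 was the lowest humanized mouse for Il1rl2, Il1rl1, Il18r1 and Il18rap. Without it their LFC values were −1.13, −0.64, −0.72 and −0.91. On chromosome 16, Il1rap, the accessory chain that Il1r1, Il1rl1 and Il1rl2 share, had 1.18 ± 0.0430 and 0.996 ± 0.0829 RPKM (LFC −0.24, FDR = 0.0894).

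**Figure D3:**
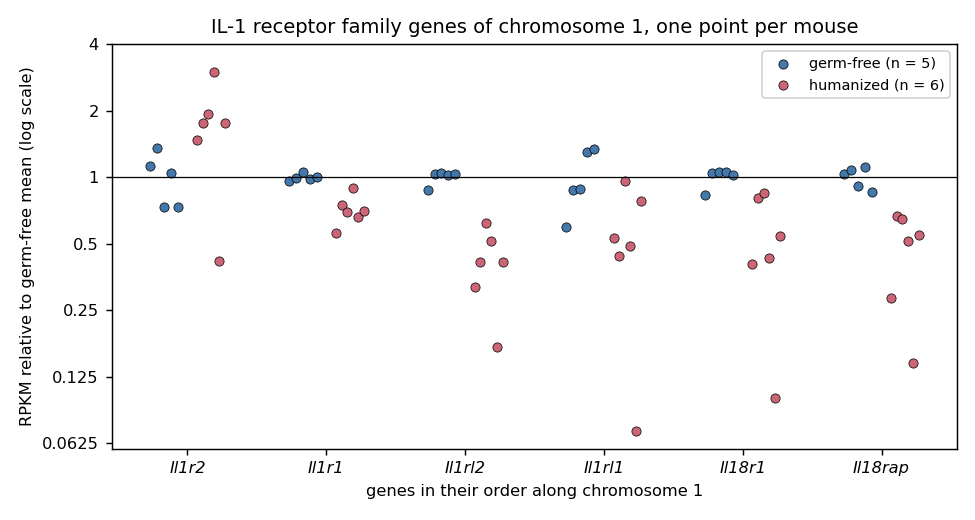
RPKM of the 6 IL-1 receptor family genes of chromosome 1 in each mouse, divided by the germ-free mean of the gene (y axis, log scale), in their order along the chromosome (x axis). Humanized mice lie below germ-free mice without overlap for Il1r1, Il1rl2 and Il18rap, and 5 of 6 lie above them for Il1r2, where humanized mouse 5 is the lowest.

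In the IL-17 receptor family 2 of 5 genes were called lower, compared with 10.1% of all genes, and the call of one of them, Il17rb, depended on the mice included. Il17rd, also known as Sef, an orphan member that dampens growth factor and IL-17 signals, lies on chromosome 14 from 27039001 to 27107286. It had 1.62, 1.47, 1.38, 1.71 and 1.51 RPKM in germ-free mice and from 0.704 to 1.16 RPKM with a median of 0.905 in humanized mice (LFC −0.74, standard error 0.12, FDR = 9.54e-06). Il17rb, the chain that binds IL-25 and is found on tuft cells and type 2 lymphoid cells, had 1.33, 1.13, 1.33, 1.48 and 1.35 RPKM in germ-free mice and from 0.763 to 1.02 RPKM with a median of 0.941 in humanized mice (LFC −0.54, standard error 0.12, FDR = 0.00544). Neither gene overlapped between the groups. The call of Il17rb was lost without the filter on low counts and on leaving out any 1 of 8 mice (germ-free mice 1, 3, 4 and 5, humanized mice 1, 2, 4 and 6), with FDR values up to 0.0296. Tuft cell markers in these mice went the other way, with 3 of 4 tested genes higher. Their summed level was 11.2 to 17.6 CPM in germ-free and 16.2 to 26.3 CPM in humanized mice. The part of these markers in the Il17rb result was not tested. Il17ra, the chain common to the family, had 5.03, 5.27, 5.79, 5.94 and 5.75 RPKM in germ-free mice and from 6.23 to 8.34 RPKM with a median of 6.61 in humanized mice, without overlap, and missed the threshold (LFC 0.32, FDR = 0.0112), while DESeq2 called it. Scaled to the epithelial markers, the LFC of Il17ra was 0.07.

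Of the 9 receptor genes grouped with the common γ chain family, Il2ra and Il9r were called lower, compared with 10.1% of all genes. The 1 called higher was Il13ra1, as described, where 9.2% of all genes were called higher. Its product pairs with IL-4Rα and not with the common γ chain, and none of the others in the group was called higher. Il2ra encodes CD25, the high-affinity IL-2 receptor chain of regulatory and activated T cells. It had 0.278, 0.304, 0.290, 0.292 and 0.328 RPKM in germ-free mice and from 0.0442 to 0.199 RPKM with a median of 0.147 in humanized mice, without overlap (LFC −1.04, standard error 0.28, FDR = 0.00282). The quasi-likelihood test gave FDR = 0.0172 for Il2ra, and its call was lost without germ-free mouse 3 or 5 (FDR up to 0.0133). T cell markers had the opposite direction in the same mice, with 5 of 10 genes called higher. Cd3e had an LFC of 1.15 (FDR = 3.26e-06), and Cd4 was not called (LFC 0.24, FDR = 0.689). The part of these markers in the Il2ra result was not tested. Il9r, the IL-9 receptor, had 0.157, 0.124, 0.259, 0.230 and 0.283 RPKM in germ-free mice and from 0.0165 to 0.147 RPKM with a median of 0.0729 in humanized mice, on 32 to 98 and 3 to 27 reads (LFC −1.40, standard error 0.40, FDR = 0.00368). Humanized mouse 2 lay within the germ-free range of Il9r, and the call was lost in the quasi-likelihood test (FDR = 0.0215) and without germ-free mouse 3, 4 or 5 or humanized mouse 4. Il7r, the receptor of naive and memory T cells and innate lymphoid cells, had an FDR of 0.0344 (LFC −0.73). The shared chain Il2rg had 1.68 ± 0.260 and 2.74 ± 1.22 RPKM (LFC 0.71, FDR = 0.0695) and was called without humanized mouse 5 (LFC 0.87, FDR = 0.0021), and 30.5% of its exon bases are shared with an overlapping gene model on the same strand. Il2rb, Il15ra and Il21r had FDR values of 0.534 or more. The IL-3 receptor chain Il3ra, the 1 member of the common β chain family, had an LFC of −0.52 (FDR = 0.205).

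None of the 5 IL-10 family receptor genes was below the threshold in edgeR's exact test, with 1 of 5 at an unadjusted p below 0.05, 0 called by the quasi-likelihood test and 1 by DESeq2. The largest LFC was that of Il22ra2, which encodes the soluble IL-22 binding protein that blocks IL-22. It had 0.540, 1.14, 0.862, 2.12 and 0.544 RPKM in germ-free mice and from 1.0 to 4.31 RPKM with a median of 2.70 in humanized mice (LFC 1.33, standard error 0.43, FDR = 0.0144). Germ-free mice 2 and 4 were within the humanized range of Il22ra2, and humanized mice 4 and 5 within the germ-free range. Leaving out germ-free mouse 4, humanized mouse 4 or humanized mouse 5 took Il22ra2 below the threshold, with LFC values of 1.76, 1.45 and 1.5. DESeq2 called it over all mice. Il10ra had 1.85, 1.79, 1.82, 1.88 and 2.01 RPKM in germ-free mice and from 0.391 to 2.48 RPKM with a median of 1.21 in humanized mice (FDR = 0.324), and Il20rb had an LFC of −0.06 (FDR = 0.881).

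**Figure D4:**
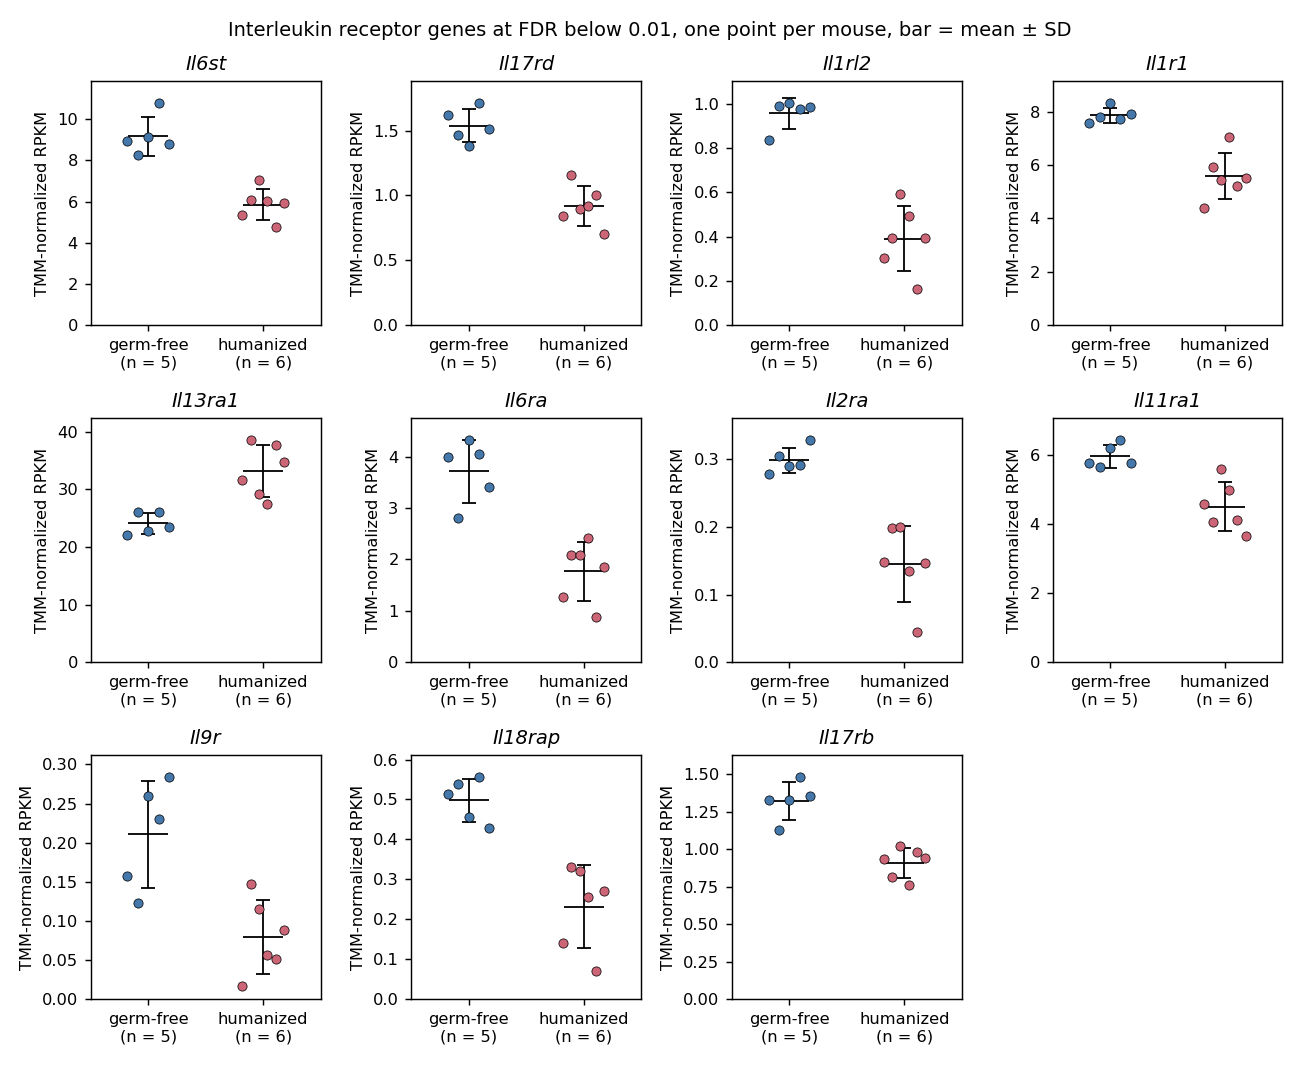
TMM-normalized RPKM (y axis) in each germ-free mouse (5 animals) and each humanized mouse (6 animals) for the 11 receptor genes at FDR below 0.01, with the mean and SD as bars. Il13ra1 is higher in humanized mice, the other 10 are lower, and Il9r is the one whose groups overlap.

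For the 10 receptor genes with lower expression, smooth muscle and fibroblast markers fell in the same mice, and humanized mouse 5 had the lowest sums of smooth muscle (80.1 CPM), fibroblast (132 CPM) and endothelial markers (13.1 CPM). Humanized mouse 5 was also the lowest humanized mouse for 24 of the 51 genes, and humanized mouse 3 the highest for 21. The part of the stromal markers in the receptor results was not tested.

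Ratios of reads within a mouse do not depend on the scaling of libraries, and 8 of them set an antagonist, decoy or shared chain against its partner. Il18bp encodes the secreted protein that neutralizes IL-18. Its own level had an LFC of 0.29 (FDR = 0.177), with 4.06, 4.01, 2.97, 3.41 and 2.99 RPKM in germ-free mice and from 3.79 to 4.89 RPKM with a median of 4.19 in humanized mice. The ratio of Il18bp to Il18 reads was 0.957, 1.07, 0.683, 0.830 and 0.769 in germ-free mice and from 0.224 to 0.451 with a median of 0.273 in humanized mice. It was lower in every humanized mouse than in every germ-free mouse, by a mean of −1.54 on the log2 scale (exact permutation test, two-sided p = 0.00216, the smallest that 5 mice against 6 allow, and 0.0173 adjusted over 8 ratios, where a ratio was called at an adjusted p below 0.05). The ratio of the antagonist Il1rn to Il1b fell short of the adjusted threshold. It was 28.7, 81.7, 51.9, 28.1 and 60.3 in germ-free mice and from 6.10 to 122 with a median of 11.2 in humanized mice, where 5 mice were below 12 and mouse 5 was at 122 (log2 difference −1.71, exact permutation p = 0.0519, adjusted 0.0895). Without humanized mouse 5 the difference was −2.33 (adjusted exact permutation p = 0.0212).

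The decoy Il1r2 over Il1r1 had a log2 difference of 1.13 (exact permutation p = 0.0325, adjusted 0.0895) and 1.47 without humanized mouse 5 (adjusted exact permutation p = 0.0212). Il22ra2 over Il22ra1 had a log2 difference of 1.23 (exact permutation p = 0.0563, adjusted 0.0895) and 1.53 without that mouse (adjusted exact permutation p = 0.0317). For Il1rn over Il1a, Il6st over Il6ra, Il17rc over Il17ra and Il10rb over Il10ra the differences were −0.62, 0.48, −0.24 and 0.83, with adjusted values from 0.0895 to 0.180 in the exact permutation test. For Il10rb over Il10ra the log2 difference was 1.1 without humanized mouse 3 (adjusted exact permutation p = 0.0317) and 0.44 without humanized mouse 5 (adjusted exact permutation p = 0.143). Il13ra2, the decoy of the IL-13 receptor, was under the reads minimum with 13 reads in germ-free and 47 in humanized mice, so its ratio was not tested.

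**Figure D5:**
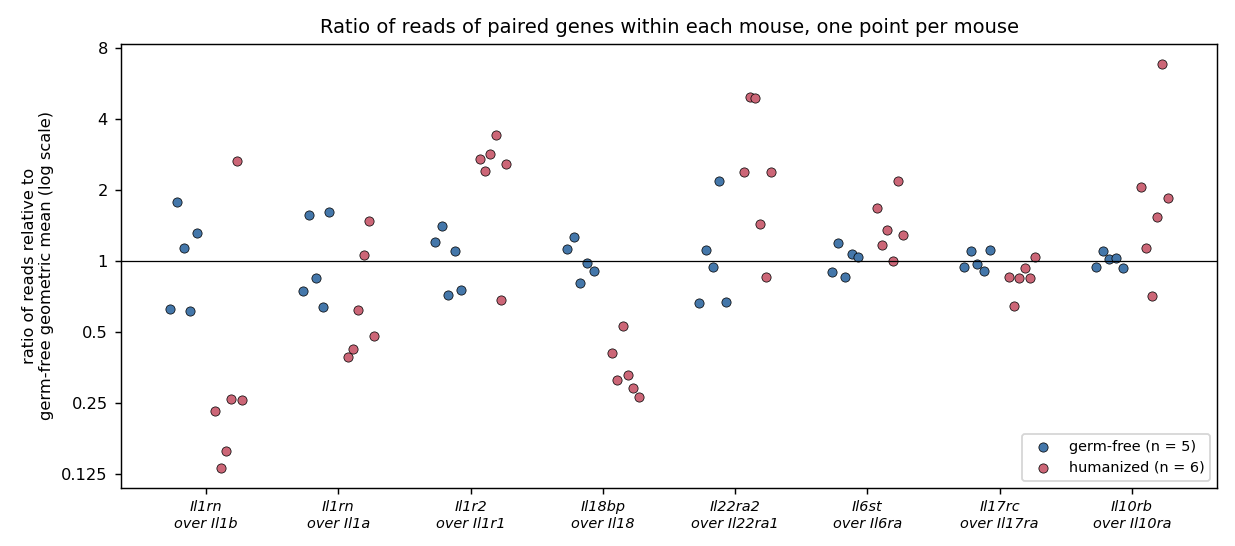
Ratio of reads of paired genes in each mouse, divided by the germ-free geometric mean of that ratio (y axis, log scale), for 8 pairs (x axis). Il18bp over Il18 is the pair whose groups do not overlap, and humanized mouse 5 lies apart from the other humanized mice for Il1rn over Il1b and Il1r2 over Il1r1.

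Other genes of the interleukin pathways were examined in 5 lists. Of 48 tested genes in them, 8 were higher and 2 lower in humanized mice, which is 20.8% and near the 19.3% of all genes called. With total counts in place of TMM 5 were higher and 11 lower, and with the epithelial scaling 4 were higher and 11 lower. Among partner subunits and related cytokines 1 of 12 was called, Lifr. Of the 9 genes of IL-1 and IL-17 receptor signalling 2 were higher (22.2%, again near that of all genes). Nfkbiz, the inducible nuclear IκBζ that IL-1 and IL-17 switch on, had 9.47, 7.40, 7.62, 5.95 and 6.11 RPKM in germ-free mice and from 13.5 to 22.5 RPKM with a median of 19.1 in humanized mice, without overlap (LFC 1.36, standard error 0.14, FDR = 1.85e-17). The kinase gene Irak4 had 8.23, 10.0, 9.43, 10.3 and 9.36 RPKM in germ-free mice and from 10.2 to 12.6 RPKM with a median of 11.9 in humanized mice (LFC 0.31, FDR = 0.00160), and Myd88, Irak1, Traf6 and Traf3ip2, which encodes Act1, were not called. None of the 11 JAK and STAT genes was called in edgeR's exact test, with 4 of 11 at an unadjusted p below 0.05, 0 called by the quasi-likelihood test and 1 by DESeq2. Stat3 came nearest, with 12.1 ± 0.553 and 14.2 ± 0.991 RPKM (LFC 0.23, FDR = 0.0111).

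Among the 8 SOCS genes, feedback inhibitors of cytokine signalling, Socs3 was higher and Socs2 lower. This is 25% of the list, near the 19.3% of all genes called. Socs3 had 4.01, 3.34, 3.64, 3.36 and 3.47 RPKM in germ-free mice and from 4.14 to 7.72 RPKM with a median of 5.24 in humanized mice (LFC 0.62, FDR = 0.00104). Socs2 had 6.59, 5.78, 5.88, 5.50 and 5.24 RPKM and from 3.48 to 4.47 RPKM with a median of 4.25 (LFC −0.51, FDR = 1.33e-06). Epithelial genes known to respond to IL-22, IL-17 or IL-13 were called higher for 5 of 8 tested, compared with 9.2% of all genes. Of the 5, Reg3g and Saa3 lost the call in the quasi-likelihood test (FDR = 0.012 and 0.0298). Reg3b, an antimicrobial lectin, had 315, 682, 97.7, 119 and 192 RPKM in germ-free mice and from 1548 to 4118 RPKM with a median of 2649 in humanized mice (LFC 3.26, FDR = 6.44e-09), and the goblet cell product Retnlb had 6.94, 8.85, 9.69, 4.98 and 9.24 RPKM and from 22.4 to 182 RPKM with a median of 39.6 (LFC 3.06, FDR = 1.70e-07). The fucosyltransferase gene Fut2 had 45.1, 51.9, 45.5, 39.1 and 49.5 RPKM and from 60.0 to 80.8 RPKM with a median of 69.1 (LFC 0.58, FDR = 9.24e-07). Every mouse of one group lay above every mouse of the other for Socs3, Socs2, Reg3b, Retnlb and Fut2. The 3 genes not called all had LFC values below 0. They were Saa1 (LFC −0.39, FDR = 0.248), Lcn2 (LFC −0.35, FDR = 0.661) and Clca1 (LFC −0.02, FDR = 0.968). Cxcl1 and Cxcl5 did not pass the low-count filter. In the same libraries Il22, Il17a and Il6, with the reads given above, and Il13, with 7 reads in germ-free and 2 in humanized mice, stood below the reads minimum.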

How the data were processed

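RNA-seq was made from the colon of 5 germ-free and 6 humanized mice, 1 library per mouse, with a TruSeq RNA v2 kit that does not mark strand and 101-base paired-end reads. The authors deposited read counts per gene and a coding length per gene, made per the labels and the study's methods with bcl2fastq 2.17.1.14, the MAP-RSeq pipeline, TopHat 2.1.0, Bowtie 2.2.3 and featureCounts (Subread 1.4.6-p5) on mm10. The annotation release, the strand setting and the counting of mates are not given in the sources used here. In all 11 libraries more genes had 2 reads than 1, so the reads of a pair may have been counted singly and a read is then not an independent fragment. Multi-mapping between near-identical copies was not resolved.

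From the counts, genes were filtered with filterByExpr (minimum count 10, minimum total 15) and TMM factors and tagwise dispersions were estimated over all 19863 remaining genes, in edgeR 4.0.16 under R 4.3.3. The groups were compared with edgeR's exact test, Benjamini-Hochberg adjusted over all genes. Standard errors are from edgeR's quasi-likelihood fit. RPKM used TMM-scaled libraries and the deposited coding length. Ratios of reads were taken within a mouse as log2(reads + 0.5) and compared by exact permutation (two-sided, 462 splits), adjusted over 8 ratios. Values in every germ-free mouse, and the lowest, median and highest of the humanized mice, are given for genes called, for the 5 most abundant of each role and for partners in ratios, and for up to 3 called genes of each pathway list with the smallest FDR. Osmr, Cntfr, Stat3, Saa1, Lcn2, Clca1, Cd3e, Cd4 and those uncalled members given singly for other reasons were picked after their values were seen. Members and lists were chosen with earlier results of these data known.

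Depth per mouse was 39125290 to 64148538 counts, so precision is limited for genes with few reads, and limits from counts of 0 cover counting error only. Alternatives were DESeq2 1.42.0, other scalings, filters and thresholds, a replicate block and leaving out each mouse. The code was tested on simulated data. Promoter sequences are from RefSeq on GRCm38.p6, where 41 of 51 members matched by symbol, and exon overlaps are from GENCODE M21. No batch is labelled, and the mice of a group are separate animals.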

Additional observations from a re-analysis of the deposited data

Results flagged for a closer look

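In 9 of 118 groups of values (RPKM of the members and ratios, each group of mice apart), 1 mouse stood apart from the rest by Dixon's test, where chance gives about 1 in 20. Humanized mouse 5 accounted for 4 of these. It had the highest Il15 among humanized mice (13.3 RPKM, next 9.36), the highest Il10rb (34.7 RPKM, next 27.1), the highest ratio of Il1rn to Il1b (122, next 11.9) and the lowest ratio of Il1r2 to Il1r1 (0.00476, next 0.0168). Germ-free mouse 1 had the lowest germ-free Il2rb (1.26 RPKM, next 1.55), Il18r1 (0.612 RPKM, next 0.757) and Il1rl2 (0.833 RPKM, next 0.973). Germ-free mouse 5 had the highest germ-free Il1f8 (0.764 RPKM, next 0.365), and humanized mouse 1 the lowest humanized Il1rap (0.837 RPKM, next 0.987). The smooth muscle, fibroblast, endothelial and macrophage marker sums were also lowest in humanized mouse 5 among all mice. The part of these markers in its values was not tested.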

How the results depend on the processing

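All 15 called members kept the sign of their fold change under every alternative in which they were tested. Of the values of single members under an alternative, 951 stayed on the same side of FDR 0.01, 51 lost the call and 13 gained it, and the cause of each change was not tested. Of the 36 uncalled members 13 changed sign under at least 1 alternative, among them Il10rb, Il15, Il22ra1, Il17rc and Il4ra under the epithelial scaling. The calls to compare are 2 ligands higher and 2 lower, 1 receptor higher and 10 lower, and 8 pathway genes higher and 2 lower. With edgeR's quasi-likelihood test 1 ligand was higher and 1 lower, and 6 receptors were lower. DESeq2 gave 3 receptors higher. Total counts gave 0 receptors higher, with 5 pathway genes higher and 11 lower, and scaling to epithelial markers gave 1 ligand higher, 0 receptors higher, and 4 pathway genes higher and 11 lower. These scalings moved the median of all genes to −0.18 and −0.24 and the calls over all genes from 1827 higher and 1999 lower to 773 and 3609, and 535 and 3260. An FDR below 0.05 gave 3 receptors higher and 4 pathway genes lower. Chosen after seeing the data, that threshold gave 3 receptors higher and 5 pathway genes lower in the quasi-likelihood test, and 4 and 7 in DESeq2. A required absolute LFC above 1 left 1 ligand lower, 0 receptors higher and 5 lower, and 5 pathway genes higher and 1 lower. Leaving out 1 mouse gave 1 to 2 ligands higher (1 without germ-free mouse 2, 3 or 5 or humanized mouse 2) and 1 to 2 lower (1 without germ-free mouse 3 or 4), 1 to 4 receptors higher and 5 to 11 lower (5 without germ-free mouse 3, 6 without germ-free mouse 4), and 6 to 9 pathway genes higher and 2 to 4 lower. The log2 difference of Il18bp over Il18 was then −1.66 to −1.46, with an adjusted exact permutation p of 0.0635 without humanized mouse 1, 2, 4 or 6, where 5 mice against 5 allow no p below 0.00794 before adjustment over 8 ratios, so this says nothing about stability. Those of Il10rb over Il10ra were 0.44 to 1.1, of Il1r2 over Il1r1 1.0 to 1.47, of Il1rn over Il1b −2.33 to −1.46 and of Il22ra2 over Il22ra1 1.02 to 1.53. With 5 reads as pseudocount Il1r2 over Il1r1 was 1.14 (adjusted exact permutation p = 0.0433). Same-numbered mice did not deviate together (correlations from −0.133 to 0.091, 1 of 5 best with its own number), so the labels share only a number. With the replicate block, the quasi-likelihood test gave 1 ligand higher and 0 lower, 0 receptors higher and 1 lower, and 4 pathway genes higher and 0 lower. The block for Il18bp over Il18 was −1.46, where 5 pairs allow no p below 0.0625 in the exact permutation test. Low reads limit Il1b, Il1r2, Il4, Il9r and Il23r.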
